A study of Mus musculus with 4 samples.

Results

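The genes described here encode enzymes that add methyl groups to lysines of histone proteins (writers) or remove them (erasers), with the core partners of the Polycomb writer among them. They were chosen by name, as 42 gene symbols matched through GENCODE to the identifiers in the count tables. No measured value entered that rule, although earlier results of these data were known when the genes were chosen. All 42 were found among 50600 genes, of which 26 are writers and 16 are erasers. RNA was sequenced from T cells of the mouse strain C57BL/6NJ, in 4 libraries that carry replicate numbers 1 to 4 and a single set of labels. The labels name primary T cells and a differentiation protocol for CD4 T cells, and the column headers of the tables add Th0 (T cells activated without polarizing cytokines), activated, sorted and 72 h. The labels name total RNA as the molecule, while the name of the library protocol refers to polyadenylated RNA. Age is given as unknown, sex as not collected, and no agent, genotype or second condition is named, so the comparisons below are between genes and between libraries.

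Methylation of histone H3 at lysine 4 (H3K4) marks promoters and enhancers, methylation at H3K36 and H3K79 marks transcribed genes, and methylation at H3K9 and H3K27 marks silenced chromatin. Most writers carry a SET domain and take the methyl group from S-adenosylmethionine, whereas erasers are either flavin-dependent amine oxidases (KDM1 family) or iron-dependent Jumonji oxygenases. In CD4 T cells these enzymes are known for keeping lineage genes silent or open as activated cells choose between effector fates.

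The libraries held 34978213, 118937382, 42274502 and 95356041 counts in replicates 1 to 4. All 7 T cell markers were at 1 TPM (a level per exonic length, scaled to the same total in each library) or more in every library, with sums of 5986 to 6378 TPM. Markers of B cells summed to at most 2.49 TPM, of macrophages to at most 1.93 TPM with Lyz2 at 0, of NK cells to at most 0.426 TPM and of dendritic cells to at most 2.86 TPM. The 3 neutrophil markers were at 0 in every library, and of the CD8 markers Cd8b1 was at 17.5 to 29.2 TPM and Cd8a at 0.0636 to 0.511 TPM. Although the labels give all libraries the same donor entry, the X-inactivation RNA Xist stood at 278.4 and 315.9 TPM in replicates 1 and 2 and at 1.25 and 0.586 TPM in replicates 3 and 4. The Y-linked gene Ddx3y went the other way, from 0.153 and 0.0739 TPM in replicates 1 and 2 to 41.2 and 34.0 TPM in replicates 3 and 4. Replicates 1 and 2 thus showed a female pattern and replicates 3 and 4 a male pattern, which 1 animal does not give. The labels call the libraries biological replicates without saying which of them come from separate animals. Every SD and p-value therefore measures only the spread between these libraries, with both patterns in it.

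The sequences shown here are the promoters of the H3K27 writers Ezh2, Suz12 and Ezh1, and of the eraser Kdm4d, because these genes carry the widest contrast inside the Polycomb complex and the lowest level of all members. Each is the RefSeq window (GRCm38.p6) from 250 bases before to 50 bases after a gene's start, printed 5′ to 3′ on the gene's strand, and capitals mark letters of the E2F or CCAAT motif on either strand. The windows are chr6:47594981-47595280 on the minus strand for Ezh2, chr11:79992856-79993155 on the plus strand for Suz12, chr11:101226414-101226713 on the minus strand for Ezh1 and chr9:14500433-14500732 on the minus strand for Kdm4d.
Ezh2: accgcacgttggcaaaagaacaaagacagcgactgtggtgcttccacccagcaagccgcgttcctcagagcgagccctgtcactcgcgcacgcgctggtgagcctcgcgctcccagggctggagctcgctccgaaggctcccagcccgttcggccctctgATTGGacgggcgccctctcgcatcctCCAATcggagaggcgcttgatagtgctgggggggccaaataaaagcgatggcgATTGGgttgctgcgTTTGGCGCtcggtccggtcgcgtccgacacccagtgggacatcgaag
Suz12: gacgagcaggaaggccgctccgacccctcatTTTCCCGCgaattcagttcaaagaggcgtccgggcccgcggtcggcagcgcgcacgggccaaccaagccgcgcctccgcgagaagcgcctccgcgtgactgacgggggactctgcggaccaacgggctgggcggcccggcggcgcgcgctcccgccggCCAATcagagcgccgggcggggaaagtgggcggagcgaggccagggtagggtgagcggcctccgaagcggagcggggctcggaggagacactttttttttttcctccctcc
Ezh1: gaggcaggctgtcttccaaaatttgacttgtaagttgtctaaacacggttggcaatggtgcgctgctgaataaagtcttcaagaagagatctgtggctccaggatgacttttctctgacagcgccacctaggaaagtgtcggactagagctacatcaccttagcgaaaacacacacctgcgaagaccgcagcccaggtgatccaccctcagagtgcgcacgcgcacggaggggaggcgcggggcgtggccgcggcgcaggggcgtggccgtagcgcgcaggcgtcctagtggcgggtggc
Kdm4d: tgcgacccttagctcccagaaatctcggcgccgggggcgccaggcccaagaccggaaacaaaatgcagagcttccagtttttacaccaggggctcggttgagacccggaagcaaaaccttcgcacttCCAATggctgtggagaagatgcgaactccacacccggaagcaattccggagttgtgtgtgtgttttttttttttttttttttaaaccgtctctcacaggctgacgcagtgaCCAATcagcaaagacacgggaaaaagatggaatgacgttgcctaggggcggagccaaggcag
E2F was searched as TTTCGCGC, TTTGGCGC or TTTCCCGC on both strands. Of the 40 promoter windows found for 30 of the 42 members, 2 held these letters (5.00%, against 1.84% of all 32851 windows), and these were Ezh2 at bases 254 to 261 and Suz12 at bases 32 to 39, counted from the 5′ end of the window. CCAAT was present on either strand in 16 of 40 member windows (40.0%) and 37.4% of all windows, with 3 matches in Ezh2, 1 in Suz12, 2 in Kdm4d and none in Ezh1. No E2F match overlapped a CCAAT match in the 4 windows shown. The palindrome TGACGTCA was found in 2 member windows, those of Phf8 and Suv39h2 (5.00%, against 1.79% of all). The letters TATAAA were found on neither strand of the 40 member windows, against 13.6% of all windows. What the member windows shared was a high CpG content. The ratio of observed to expected CpG was above 0.6 in 37 of 40 member windows (92.5%) and in 35.8% of all windows, with medians of 0.886 and 0.384. All 32851 windows were taken whatever the level of their genes. The members were not set beside expressed genes alone, so this need not be particular to them. No window was found for Prdm2, Smyd3, Kdm3b, Kmt2b, Setd1b, Kmt2e, Ash1l, Nsd1, Kdm2a, Kdm4b, Kdm5a and Kdm6b. A match or its absence describes these letters in these windows only.

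As a class the genes were broadly expressed. In every library 41 of 42 members reached 1 TPM, against a background of 49.9% of 21764 protein-coding genes. The median of the members' mean levels was 38.8 TPM, and 25 members lay above the middle of the protein-coding genes that reached 1 TPM in every library. In these bulk libraries a lower level may come from fewer cells of a type or from less RNA per cell, and these cannot be told apart.

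**Figure D1:**
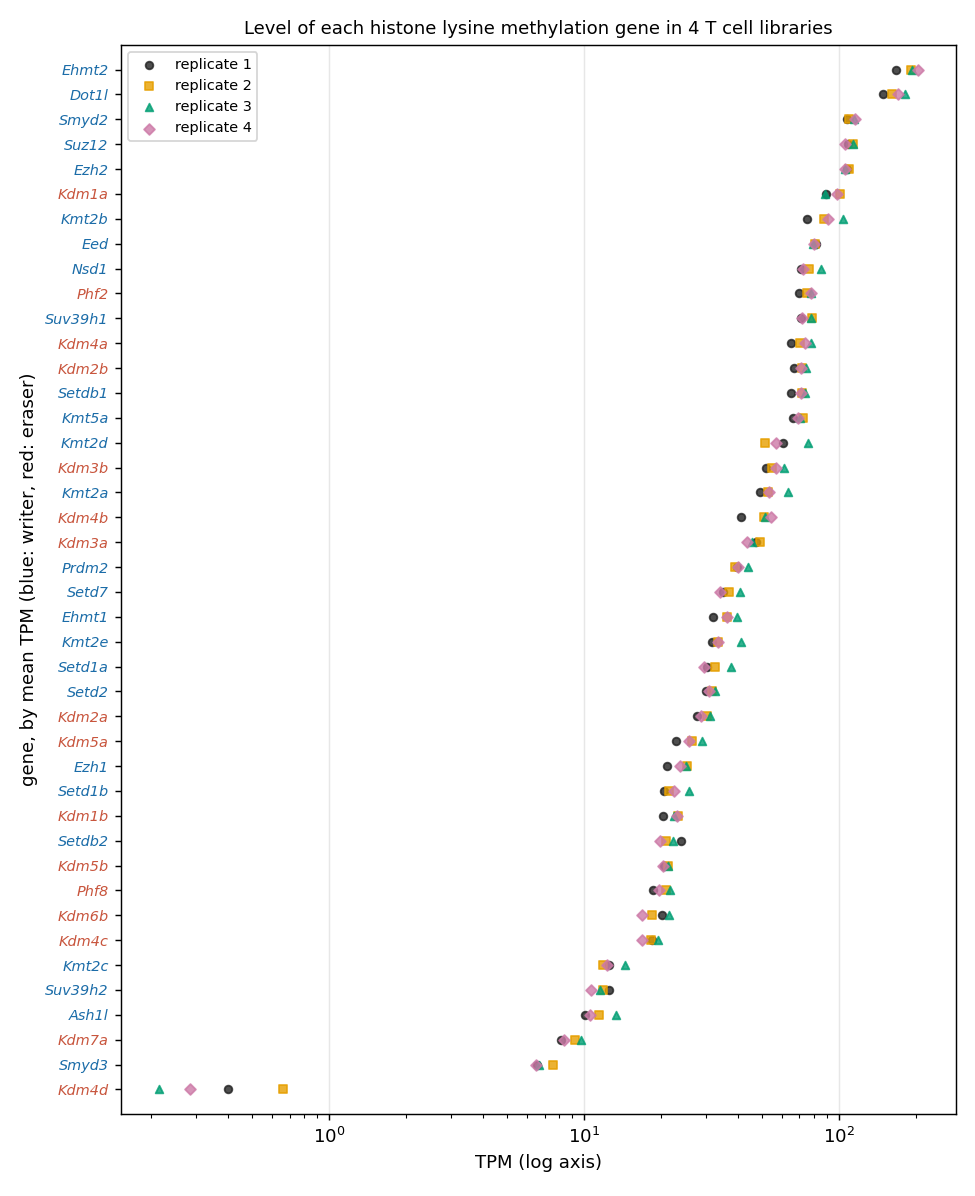
TPM (log axis) of the 42 members in each of the 4 libraries, ordered by mean level, with writers and erasers in separate colours. Ehmt2 and Dot1l lie at the top, between 148.7 and 203.4 TPM, and Kdm4d lies apart at the bottom, between 0.216 and 0.662 TPM.

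Ehmt2 (ENSMUSG00000013787.15, chr17:34898469-34914052, plus strand), which encodes G9a, the writer of dimethyl H3K9, had the highest mean level. It stood at 167.9, 192.4, 193.9 and 203.4 TPM in replicates 1 to 4 (189.4 ± 15.1 TPM, SD, n = 4), at percentile 91.2 of the protein-coding genes with 1 TPM or more in every library. Dot1l (ENSMUSG00000061589.14, chr10:80755206-80795461, plus strand), the H3K79 methyltransferase, followed at 148.7, 161.7, 181.0 and 170.4 TPM (165.5 ± 13.7 TPM, SD, n = 4). The ranges of these 2 genes overlapped, although Ehmt2 was above Dot1l in each library. Smyd2, which methylates H3K36 and non-histone proteins such as p53, came next at 107.7, 109.7, 114.8 and 115.5 TPM, below every value of Dot1l. This order holds for the exonic length. With the length of the longest protein-coding transcript Ezh2 was at 186.8 TPM, beside Ehmt2 at 188.0 TPM and above Dot1l at 154.1 and Smyd2 at 131.8 TPM. Below Smyd2 the levels fell in small steps. Of the 41 pairs of neighbours in the order, 35 overlapped in range, and the breaks lay after Dot1l, Ezh2, Kdm4c, Ash1l, Kdm7a and Smyd3.

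Among the writers of H3K4, the MLL family gene Kmt2b led at 74.9, 87.0, 103.9 and 90.3 TPM (89.0 ± 11.9 TPM, SD, n = 4). Its paralog Kmt2a (MLL1) stood at 49.2, 52.6, 63.2 and 53.0 TPM, below Kmt2b in 4 of 4 libraries, with a log2 difference (Kmt2a minus Kmt2b) of -0.70 ± 0.07. Without the division by length that order turned, to 0.093. Kmt2d and Kmt2c, which encode the MLL4 and MLL3 enzymes that monomethylate H3K4 at enhancers, differed 4.69-fold. Kmt2d was at 60.4, 51.1, 75.4 and 56.4 TPM and Kmt2c at 12.5, 11.9, 14.4 and 12.3 TPM, with no overlap. Setd1a and Setd1b, the SET1 writers of trimethyl H3K4, were at 32.5 ± 3.67 and 22.6 ± 2.30 TPM (SD, n = 4). The value of Setd1a is uncertain, since 51.8% of its exonic bases are shared with an overlapping gene on the same strand, Gm49388, and pairs there are left uncounted. Kmt2e, an MLL5 protein whose methyltransferase activity is not established, was at 35.0 ± 4.28 TPM, and Setd7, an H3K4 monomethyltransferase with many non-histone substrates, at 36.9 ± 2.96 TPM. Smyd3 (chr1:178951960-179518041, minus strand), a SET and MYND domain methyltransferase, was the lowest writer of all at 6.52, 7.56, 6.69 and 6.51 TPM. Smyd2 exceeded it 16.2-fold.

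Among the members, the H3K4 erasers were led by Kdm1a (LSD1), the amine oxidase of the CoREST complex, at 89.3, 101.0, 88.0 and 97.9 TPM. Its paralog Kdm1b (LSD2) was at 20.5, 23.3, 22.6 and 23.2 TPM, a difference of 2.06 ± 0.07 (log2, SD, n = 4), or 2.88 with the length of the longest protein-coding transcript. The Jumonji erasers of trimethyl H3K4 among the members lay close together, with Kdm5a at 23.0, 26.6, 29.1 and 25.9 TPM and Kdm5b at 20.6, 21.4, 21.3 and 20.4 TPM. Kdm5a was the higher in 4 of 4 libraries, by 0.32 ± 0.12 (log2), and with the length of the longest transcript the order turned to -0.24. Summed, the 9 H3K4 writers came to 351.0 ± 39.6 TPM and the 4 H3K4 erasers to 163.5 ± 8.19 TPM (SD, n = 4). The related H3K4 eraser Kdm5c is no member and is left out of that sum. It was at 162.1, 174.0, 124.9 and 117.5 TPM, above Kdm1a in every library.

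The H3K9 writers gave the highest summed TPM of any group, 444.7 ± 22.4 TPM over 7 genes (SD, n = 4). Without length the order turned, with 824.3 CPM for the H3K9 writers and 1416 CPM for the 9 H3K4 writers. Ehmt2 contributed most, and Ehmt1 (GLP), its partner in the same heterodimer, was 5.24-fold lower at 31.9, 36.3, 39.8 and 36.4 TPM. Suv39h1 (chrX:8061171-8074760, minus strand), which trimethylates H3K9 in pericentric heterochromatin, was at 71.0, 78.7, 77.5 and 71.5 TPM. Suv39h2, its paralog, was at 12.6, 11.9, 11.6 and 10.7 TPM, a difference of 2.67 ± 0.12 (log2, SD, n = 4), or 3.39 with the length of the longest transcript. Setdb1, the H3K9 writer recruited by Trim28, was at 70.4 ± 3.71 TPM and Setdb2 at 21.8 ± 1.75 TPM. Prdm2 (RIZ) was at 40.7 ± 2.14 TPM. In each of these paralog pairs the first named gene was the higher in 4 of 4 libraries.

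The 5 erasers assigned to H3K9 summed to 206.4 ± 8.37 TPM. Phf2 led them per exonic length, at 74.9 ± 3.88 TPM. Its relative Phf8 (chrX:151520672-151633859, plus strand), which also acts on H4K20, was at 18.6, 20.9, 21.7 and 19.6 TPM, and Kdm7a, the other member of that family, at 8.12, 9.26, 9.77 and 8.35 TPM. The log2 difference of Phf8 was -1.89 ± 0.07 from Phf2 and 1.18 ± 0.04 from Kdm7a (SD, n = 4), and that from Phf2 was -1.27 with the length of the longest transcript. Kdm3a, an eraser of mono- and dimethyl H3K9, was at 47.2, 49.1, 45.4 and 43.6 TPM, and Kdm3b at 52.0, 54.8, 61.1 and 56.8 TPM. Kdm3a was the lower in 4 of 4 libraries, by a log2 difference of -0.28 ± 0.15. With the length of the longest transcript that order turned to 0.32. Kdm3a, at 57.2 TPM with that length, was then also above Phf2, at 52.2 TPM.

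The KDM4 family removes trimethyl marks from H3K9 and, for some of its members, from H3K36, and was assigned to both as 1 group. It spanned the widest range of any family. Kdm4a was at 64.9, 70.1, 77.5 and 73.3 TPM, Kdm4b at 41.2, 50.6, 51.2 and 54.3 TPM and Kdm4c at 18.4, 18.3, 19.4 and 16.9 TPM. Kdm4a exceeded Kdm4b 1.45-fold and Kdm4c 3.89-fold. Kdm4d (ENSMUSG00000053914.9, chr9:14462548-14500482, minus strand), a member known for expression in testis, received 13, 69, 8 and 24 counts. These gave 0.403, 0.662, 0.216 and 0.284 TPM (0.391 ± 0.196 TPM, SD, n = 4), and the ratio of the mean levels of Kdm4a and Kdm4d was 183. On the log2 scale of the pairs the fold was 154 with the pseudocount of 0.1 and 52.4 with a pseudocount of 1, so its size depends on that choice. Kdm4d was above the level that 3 counts stand for in each library, and every other member received at least 625 counts in every library.

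Polycomb repressive complex 2, the writer of H3K27, consists of a catalytic subunit, EZH2 or EZH1, with the core subunits SUZ12 and EED. Ezh2 (ENSMUSG00000029687.16, chr6:47530139-47595341, minus strand) stood at 107.2, 109.8, 105.9 and 105.1 TPM (107.0 ± 2.05 TPM, SD, n = 4), and Suz12 (chr11:79993106-80034123, plus strand) at 108.1, 114.0, 114.0 and 105.8 TPM. Eed was at 81.3, 80.2, 78.9 and 79.9 TPM. Ezh2 and Suz12 overlapped in range, and Eed lay below both in every library. The place of Eed below Suz12 also rests on the exonic length. With the length of the longest transcript Eed was at 108.0 TPM, above Suz12 at 91.0 TPM. Ezh1 (chr11:101191115-101226463, minus strand), the paralog with weaker catalytic activity that is typical of resting cells, was at 21.1, 25.3, 25.1 and 23.8 TPM, 4.49-fold below Ezh2. The levels of Ezh2 and Suz12 differed by -0.05 ± 0.04 (log2, SD, n = 4), and this near equality rests on the exonic length: with the length of the longest transcript Ezh2 was higher by 1.04, and without length by 0.39.

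The only H3K27 eraser among the members, Kdm6b (JMJD3, chr11:69398508-69413675, minus strand), was at 20.1, 18.4, 21.5 and 16.9 TPM, at percentile 35.9 of the protein-coding genes that reached 1 TPM in every library. The 4 H3K27 writers together, with the non-catalytic subunits Suz12 and Eed counted, exceeded it 15.8-fold, 17.9-fold, 15.1-fold and 18.6-fold in replicates 1 to 4. Ezh2 alone exceeded it by 2.48 ± 0.15 (log2, SD, n = 4), or by 3.67 with the length of the longest transcript. Kdm6a (UTX), the X-linked eraser of the same mark and no member, was at 32.3, 34.1, 20.4 and 17.2 TPM, so both erasers were below each of Ezh2, Suz12 and Eed in every library. Against the other catalytic gene, Ezh1 (21.1, 25.3, 25.1 and 23.8 TPM), Kdm6b was lower in every library. Kdm6a was above Ezh1 in replicates 1 and 2 and below it in replicates 3 and 4.

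Of the H3K36 writers among the members, Smyd2 was followed by Nsd1, a writer of dimethyl H3K36, at 76.2 ± 6.26 TPM. Setd2, the trimethyl H3K36 writer that travels with RNA polymerase II, was at 31.4 ± 1.14 TPM, and Ash1l at 10.1, 11.4, 13.4 and 10.5 TPM. The sum of these 4 genes was 230.8 ± 11.1 TPM. Nsd2 and Nsd3, related to Nsd1, are no members and are left out of that order and sum. Nsd2 was at 49.4 ± 1.81 TPM, above Setd2, and Nsd3 at 24.5 ± 1.10 TPM, above Ash1l. The H3K36 erasers Kdm2a and Kdm2b, CXXC proteins that bind unmethylated CpG islands, summed to 100.4 ± 4.77 TPM. Kdm2b, which also recruits a variant Polycomb complex 1, was at 66.7, 71.6, 74.4 and 70.7 TPM and Kdm2a at 29.6 ± 1.63 TPM, a log2 difference of -1.26 ± 0.02 (Kdm2a minus Kdm2b, SD, n = 4). Kmt5a, the H4K20 monomethyltransferase tied to the cell cycle, was at 69.3 ± 2.52 TPM.

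**Figure D2:**
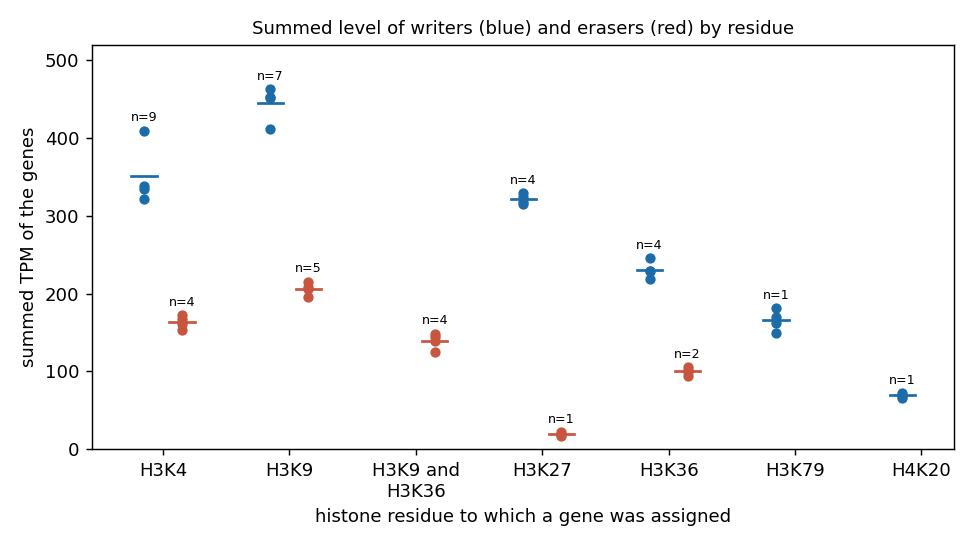
Summed TPM of writers and erasers for each histone residue, with a point for each of the 4 libraries, a line at their mean and the number of genes beside each group. The H3K9 writers reach 444.7 TPM on average and the single H3K27 eraser 19.2 TPM.

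Among the members, writers stood above erasers per length. The sums cover 26 writers and 16 erasers, and related genes outside the members are in neither. Among those left out are the eraser Kdm5c at 144.6 TPM, above every eraser counted, and the methyltransferase Smyd5 at 100.2 TPM. The writers summed to 1485, 1578, 1693 and 1575 TPM (1583 ± 85.3 TPM, SD, n = 4) and the erasers to 588.1, 641.2, 652.0 and 634.8 TPM (629.0 ± 28.2 TPM). The median writer was at 44.5, 45.1, 53.5 and 46.6 TPM and the median eraser at 25.3, 28.5, 30.2 and 27.4 TPM, so the groups' medians did not overlap over the libraries. On the log2(TPM + 0.1) scale the medians differed by 0.75 ± 0.07 (SD, n = 4). The size of the difference moved with the members and the length used: it was 0.66 without Kdm4d, 0.55 with the catalytic genes only and 0.29 with the length of the longest transcript. On CPM (counts scaled to library size, without any length) it was -0.035. Both groups reached from low to high levels, with 13 of 26 writers and 5 of 16 erasers at a mean of 50 TPM or more.

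All 20 pairs of paralogs, subunits or opposing enzymes that were compared kept the same order in 4 of 4 libraries. The exact two-sided sign-flip permutation test gave p = 0.125 for each, and 0.125 after adjustment over the 20 pairs, which is the smallest value that 4 libraries allow, so none could pass 0.05. The mean difference kept its sign in 17 of 20 pairs with the length of the longest transcript and in 17 without length. Without length, 18 of 20 pairs had a single direction over the 4 libraries, and these include the pairs whose mean had turned. The libraries were split in direction for Kdm3a and Kdm3b and for Kdm5a and Kdm5b.

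**Figure D3:**
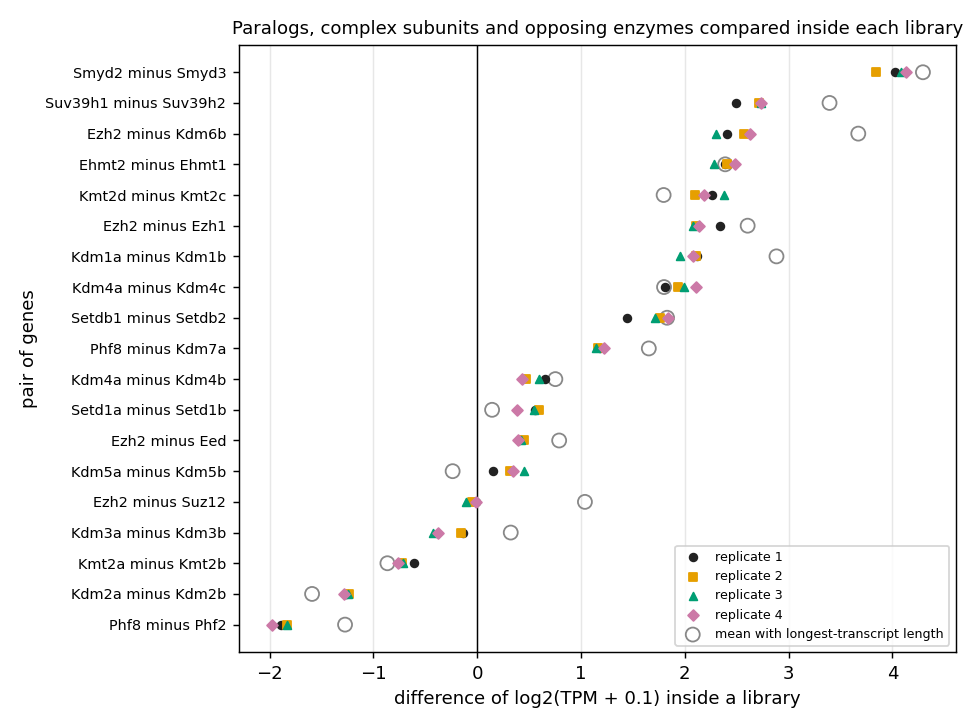
Differences in log2(TPM + 0.1) between the members of each pair, with filled points for the 4 libraries and an open circle for the mean with the length of the longest transcript. The pair of Kdm4a and Kdm4d, at 7.27, is left out for scale, and the circles of Ezh2 and Suz12, Kdm3a and Kdm3b, and Kdm5a and Kdm5b lie across 0 from their points.

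Of 14269 genes tested, edgeR's goodness of fit called 66 variable at an adjusted p below 0.05 (0.463%), and none of the 42 members was among them. At so low a background share this count says nothing particular about the members. At an unadjusted p below 0.05 it held 3 members (7.14%), Kmt2d, Kmt2e and Kmt2b, against 5.69% of all genes. A common dispersion called 6.69% of all genes and 1 member, Kdm4d (edgeR adjusted p = 0.0443), and DESeq2 marked 0.428% of all genes and 1 member, Kmt2d, as dispersion outliers. The highest library exceeded the lowest by less than 1.2-fold in 31 of 42 members, on CPM with TMM scaling, against 49.1% of all genes tested. The median range was 0.20 on the log2 scale for the members and 0.27 for all genes tested.

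Kmt2d (ENSMUSG00000048154.16, chr15:98831669-98871204, minus strand) had the widest span of the 41 members above 1 TPM, on CPM with TMM scaling. Around its mean it stood at 0.07, -0.26, 0.29 and -0.10 in replicates 1 to 4 (log2 CPM), a 1.46-fold span. The edgeR adjusted p of that span was 0.336. Its high values were in replicates 3 and 1, which are the shallowest libraries. The nuclear RNAs Malat1 (348.0, 63.2, 246.0 and 59.3 TPM) and Rn7sk (149.6, 20.98, 80.6 and 15.1 TPM) were high in the same libraries, and their part in the value of Kmt2d was not tested. Without replicate 2 the span of Kmt2d was 1.31-fold and without replicate 3 it was 1.26-fold, and its adjusted p lay between 0.204 and 1.00 over the 8 alternatives fitted. With the trend in GC content and length taken out, Kdm6b had the wider span, 1.55-fold against 1.49-fold for Kmt2d, and its span was 1.25-fold before that step. Neither gene was called there (edgeR adjusted p = 0.286 for Kdm6b and 0.324 for Kmt2d). Both of the libraries with high nuclear RNA were above both of the others in 8 of 42 members (19.0%), against 15.5% of all genes. Replicates 1 and 2 lay apart from replicates 3 and 4, in either direction, in 19 of 42 members (45.2%), against 36.3% of all genes. With the trend in GC content and length taken out, the first shares were 26.2% and 16.7%, and the second were 26.2% and 35.4%.

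Replicate 3 held the highest value of 22 members (52.4%), against 28.4% of all genes. Gene length moved with this. Among the 14 members with 10000 or more exonic bases, 13 were highest in replicate 3, and among the other 28 members 9 were, while 54.0% of the 1018 genes of that length were highest there. Over the 42 members, Spearman's rho of the centred log2 value with exonic length was -0.27, -0.27, 0.66 and -0.19 in replicates 1 to 4, and over all genes -0.13, 0.03, 0.19 and -0.11, as a description across genes that share each library. With a trend in GC content and length taken out in each library, 7 members (16.7%) were highest in replicate 3, against 25.1% of all genes, and 19 (45.2%) in replicate 1, against 34.2%.

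**Figure D4:**
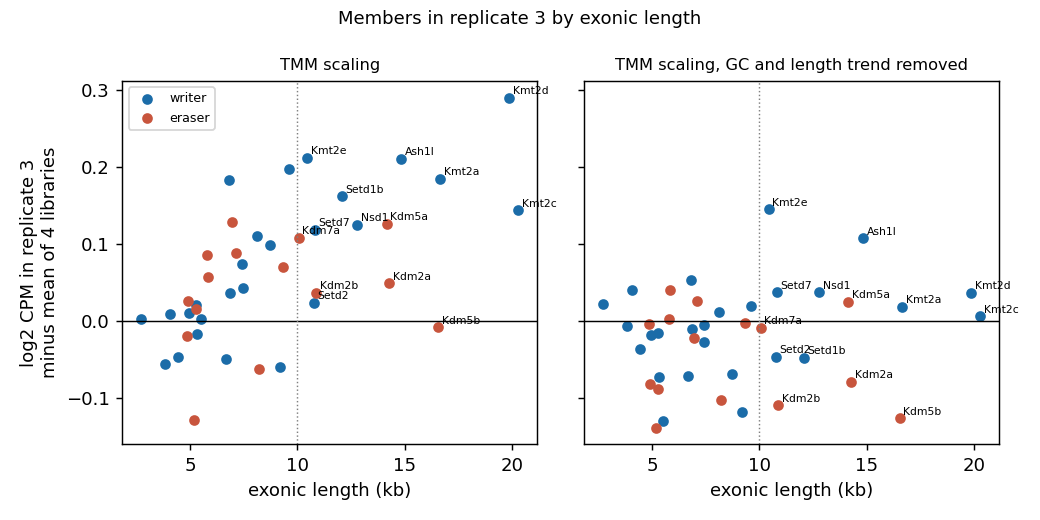
Centred log2 CPM in replicate 3 against exonic length (kb, linear axis) for the members, with TMM scaling on the left and with the trend in GC content and length removed on the right. Kdm4d is left out for scale, the dotted line marks 10000 bases, and the 14 genes right of it have a median of 0.13 on the left.

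Genes around the members, taken from 6 lists of partner subunits, related enzymes and readers, were examined beside them. Of these 63 genes, 57 were at 1 TPM or more in every library, and 2 of the 58 tested were called variable. All 7 Polycomb complex 2 partners reached 1 TPM, led by the histone chaperone Rbbp7 at 449.3 ± 13.7 TPM, and so did the 7 partners of LSD1, led by the deacetylase Hdac1 at 169.9 ± 3.01 TPM. Of 11 partners of the H3K4 writers 10 did, led by Hcfc1 at 221.5 ± 20.1 TPM. All 14 readers did, led by Trim28 at 541.2 ± 28.7 TPM, the corepressor that recruits Setdb1. Other methyltransferases reached it in 13 of 15 cases, led by Smyd5 at 100.2 ± 3.59 TPM, and other demethylases in 6 of 9, led by Kdm5c at 144.6 ± 27.7 TPM (SD, n = 4).

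The 2 called genes are X-linked erasers. Kdm5c, an H3K4 eraser, was at 162.1, 174.0, 124.9 and 117.5 TPM (edgeR adjusted p = 0.0101), and Kdm6a had an adjusted p of 4.91e-15 in the same edgeR fit. Both were higher in replicates 1 and 2, the libraries with high Xist. Their Y-linked relatives were near 0 there, with Kdm5d at 0.0526, 0.0199, 12.8 and 11.0 TPM and Uty at 0.00905, 0.0224, 10.8 and 9.71 TPM. Added together, Kdm6a and Uty gave 32.3, 34.2, 31.2 and 26.9 TPM, and Kdm5c and Kdm5d gave 162.1, 174.1, 137.7 and 128.4 TPM. The X-linked members Suv39h1 and Phf8 were not called, and their values in the 2 pairs of libraries overlapped.

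**Figure D5:**
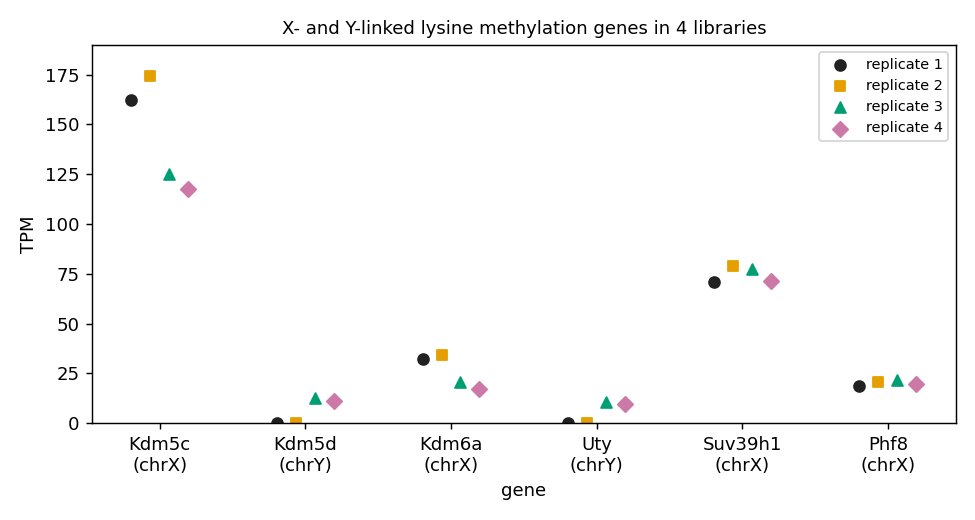
TPM in each library of the X-linked members Suv39h1 and Phf8, of the related erasers Kdm5c, Kdm6a and Kdm5d, and of the Y-linked Uty. Kdm5c and Kdm6a are higher in replicates 1 and 2, the Y-linked Kdm5d and Uty are above 9 TPM only in replicates 3 and 4, and Suv39h1 and Phf8 overlap between these libraries.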

How the data were processed

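RNA was sequenced from 4 libraries of mouse T cells, and every spread below is between these 4 libraries. The authors counted read pairs per gene with featureCounts 1.4.6-p4 on the exons of GENCODE M13, with the reverse strand setting and both ends mapped, per the file headers. The deposited values are raw counts, with no normalization. The alignments are named as STAR output in the same headers, and its version was not given in the sources used here. Pairs mapping to several genes were not counted under those settings, so genes that share exons can lose counts.

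Of 50600 genes, 50376 were matched by identifier to GENCODE M21 for symbols. TPM was computed here from the counts and the deposited exonic length of each gene. Variation between libraries was tested across all genes with edgeR 4.0.16 in R 4.3.3 (filterByExpr, TMM, intercept only, goodness of fit around the trended dispersion, Benjamini-Hochberg adjustment at 0.05), and was checked on simulated data. Pairs of genes were compared inside each library on log2(TPM + 0.1) by flipping the signs of the 4 differences (exact permutation, two-sided), adjusted over 20 pairs. Alternatives were DESeq2 1.42.0 (size factors, dispersion outliers), no count filter, a common dispersion, an offset for GC content and length, CPM, a pseudocount of 1, other gene lengths and leaving out each library. Log2 CPM used a prior count of 2. All 42 members were named. Values in every library were given for the 5 highest and 5 lowest, for the pairs a result turned on, and for called genes. The members, lists and pairs were chosen with earlier results of these data known. Promoter sequences are RefSeq's on GRCm38.p6, and the letters searched in them were chosen after the files were seen.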

Additional observations from a re-analysis of the deposited data

Results flagged for a closer look

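In 2 results, 1 library lay far from the other 3. Of 70 values examined, 2 met this criterion, where chance alone gives about 1 in 20 groups, or 3.5 here. Smyd3 was at 7.56 TPM in replicate 2 and at 6.52, 6.69 and 6.51 TPM in the others. The log2 difference of Suv39h1 and Suv39h2 was 2.49 in replicate 1 and 2.72 to 2.73 in the others.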

How the results depend on the processing

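No paired analysis was possible because the labels give 1 group. The count of variable genes, 66 with the trended dispersion, was 955 with a common dispersion and 41 to 68 when each library was left out, the 41 without replicate 1. Members called were 1 with a common dispersion (Kdm4d) and 1 by DESeq2's dispersion outliers (Kmt2d). Members highest in replicate 3 fell from 22 to 7 with the GC and length offset. Without length, the log2 difference turned to 0.39 for Ezh2 minus Suz12, 0.093 for Kmt2a minus Kmt2b and -0.31 for Setd1a minus Setd1b. With the length of the longest transcript it turned to 1.04 for Ezh2 minus Suz12, 0.32 for Kdm3a minus Kdm3b and -0.24 for Kdm5a minus Kdm5b. Writers minus erasers, 0.75, was -0.035 without length, 0.55 for catalytic genes, 0.66 for members at 1 TPM, 0.66 without Kdm4d and 0.29 with the longest transcript. The log2 ratio of summed H3K9 to H3K4 writers, 0.35, turned to -0.78 without length. Leaving out any library moved none of the 42 levels by more than their SD and turned none of the 20 pairs. Neither check could have come out otherwise. Leaving out 1 library cannot shift a mean by more than the SD, and each pair kept its order in every library. No conclusion about the stability of levels or orders is drawn from them. The longest-transcript lengths, the removal of Kdm4d, every alternative for the H3K9 to H3K4 ratio and the other settings for the count in replicate 3 were chosen after seeing the data. The union of exons counts bases that these cells may not transcribe, so levels of genes with many transcripts are less certain than the library spread shows. Counts are few for Kdm4d alone, and the level of 3 counts set beside it covers counting error only.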
